A study of Mus musculus with 6 samples.

Results

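The genes described here encode 9 proteins of PRC1.6, a non-canonical Polycomb complex, and of the factors that bring it to DNA: Pcgf6, E2f6, L3mbtl2, Mga, Max, Cbx3, Rybp, Yaf2 and Tfdp1. They were taken by gene symbol from a count table of 48440 genes, and each of the 9 was found once and passed the filter on low counts. RNA-seq was run on induced pluripotent stem cells (iPSCs) of the mouse, in 6 clonal lines, 3 with a Cas9 knockout of Tet1 (Tet1 KO) and 3 non-targeted, to ask how the loss of Tet1, an oxidase of 5-methylcytosine, alters expression. The Tet1 KO clones were clones 14, 30 and 33 of line iPSC34.3 (replicates 1 to 3), labelled wt/wt;GFP/wt with Tet1 Cas9 mut/mut. The non-targeted clones were clones 49, 51 and 52 of the same line (replicates 1 to 3), labelled wt/wt;GFP/wt. Both groups are male, share the strain labels B6- Tet1tm1Kohx and B6;CBA-Tg(Pou5f1-EGFP)2Mnn/J, carry a Pou5f1-EGFP transgene and had 14 passages before transfection and 4 passages after colonies were picked. The growth text is the same for all clones: transfection with Cas9 ribonucleoprotein, a guide RNA against Tet1 and an ssODN (a short repair template), 12 h in an agent that favours homology-directed repair, and expansion in KSR medium on mouse embryonic fibroblasts, which were removed before RNA extraction. The labels do not say how the treatment of the non-targeted clones differed. With a single parental line, p-values cover the spread among its clones only.

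PRC1.6 is a Polycomb repressive complex built around PCGF6 and the E3 ligases RING1 and RNF2, which ubiquitylate histone H2A. It is guided to DNA by MGA with MAX, which bind the E-box, and by E2F6 with a DP partner such as the product of Tfdp1, which bind E2F motifs. In mouse embryonic stem cells the complex is known for keeping genes of meiosis and the germline silent.

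Counts summed to between 11937909 and 16189554 reads per library. Tet1 itself (chromosome 10, 62804570 to 62899118, GRCm38) had 365, 231 and 288 CPM (counts scaled to a common library size) in Tet1 KO replicates 1 to 3, against 1158, 966 and 1034 CPM in non-targeted clones. Its log2 fold change was -1.84 ± 0.16 (SE), with an adjusted p of 0.0703 in edgeR's quasi-likelihood test and of 9.43e-20 in DESeq2. The edgeR test called 0 of 14664 genes (0.00%), with 3640 at an unadjusted p under 0.05 (24.8%), whereas DESeq2 called 1232 genes (8.65%). With Tet1 KO replicate 1 left out, edgeR called 4404 genes (29.1%). Of 24 tested markers of fibroblasts, the feeder cells, 18 were higher in every Tet1 KO clone (14.8% of all genes) and 11 rose in DESeq2 (5.50% of all genes). Of the called markers, the collagen gene Col6a2 had 18.8 ± 7.30 CPM in the Tet1 KO clones and 7.76 ± 1.21 CPM in non-targeted clones (SD, n = 3 each; log2 fold change 1.28 ± 0.28 SE), and Col5a1, Col6a3 and Loxl1, a lysyl oxidase relative that crosslinks matrix, had log2 fold changes of 1.202 ± 0.30, 1.153 ± 0.29 and 0.72 ± 0.18. With the average non-targeted level as 0, their median log2 level was 0.61, 0.85 and 1.95 in Tet1 KO replicates 1 to 3, against -0.35, 0.25 and 0.11 in non-targeted replicates. None of the 24 was at 0 in any library, and the summed level of the list was 2072 to 2897 CPM in the Tet1 KO clones and 2055 to 2394 CPM in non-targeted clones, most of it from Fn1, Thbs1, Vim and Sparc, which are named for their abundance. Of these Fn1 (-0.42 ± 0.25) and Sparc (-0.17 ± 0.10) had log2 fold changes below 0, with overlapping groups. In RNA from bulk cultures, fewer cells of a type and less RNA per cell cannot be told apart. Markers of pluripotent cells were present in all clones, except Sox2, which is listed at 0 because its locus lies within Sox2ot on the same strand. Pou5f1 stood at 684 ± 8.54 CPM in the Tet1 KO clones and 780 ± 59.6 CPM in non-targeted clones (SD, n = 3 each). Dppa4 stood at 69.3 ± 11.1 CPM in the Tet1 KO clones and 88.3 ± 6.65 CPM in non-targeted clones. Of 14 tested markers, 13 had a log2 fold change below 0 (median -0.30, against 0.00 over all genes), and neither edgeR nor DESeq2 called any. Nanog, named for its low value, was at -0.08, -0.81 and -2.15 in Tet1 KO replicates 1 to 3 (non-targeted average as 0).

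Most PRC1.6 genes differed little between the groups. The edgeR test called 0 of the 9 members, against 0.00% of all genes. An unadjusted p under 0.05 was found for 3 (24.8% of all genes), Yaf2 and Tfdp1 higher and L3mbtl2 lower in the Tet1 KO clones. DESeq2 called 1, Yaf2, which rose (5.50% of all genes rose in DESeq2). Log2 fold changes of the other 8 lay between -0.29 and 0.24, and 6 of the 9 lay below 0, with a median of -0.11 against 0.00 over all genes tested. The groups did not overlap for 4 members (29.5% of all genes), Yaf2 and Tfdp1 with every Tet1 KO clone higher (14.8% of all genes) and L3mbtl2 and Rybp with every Tet1 KO clone lower (14.7% of all genes).

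**Figure D1:**
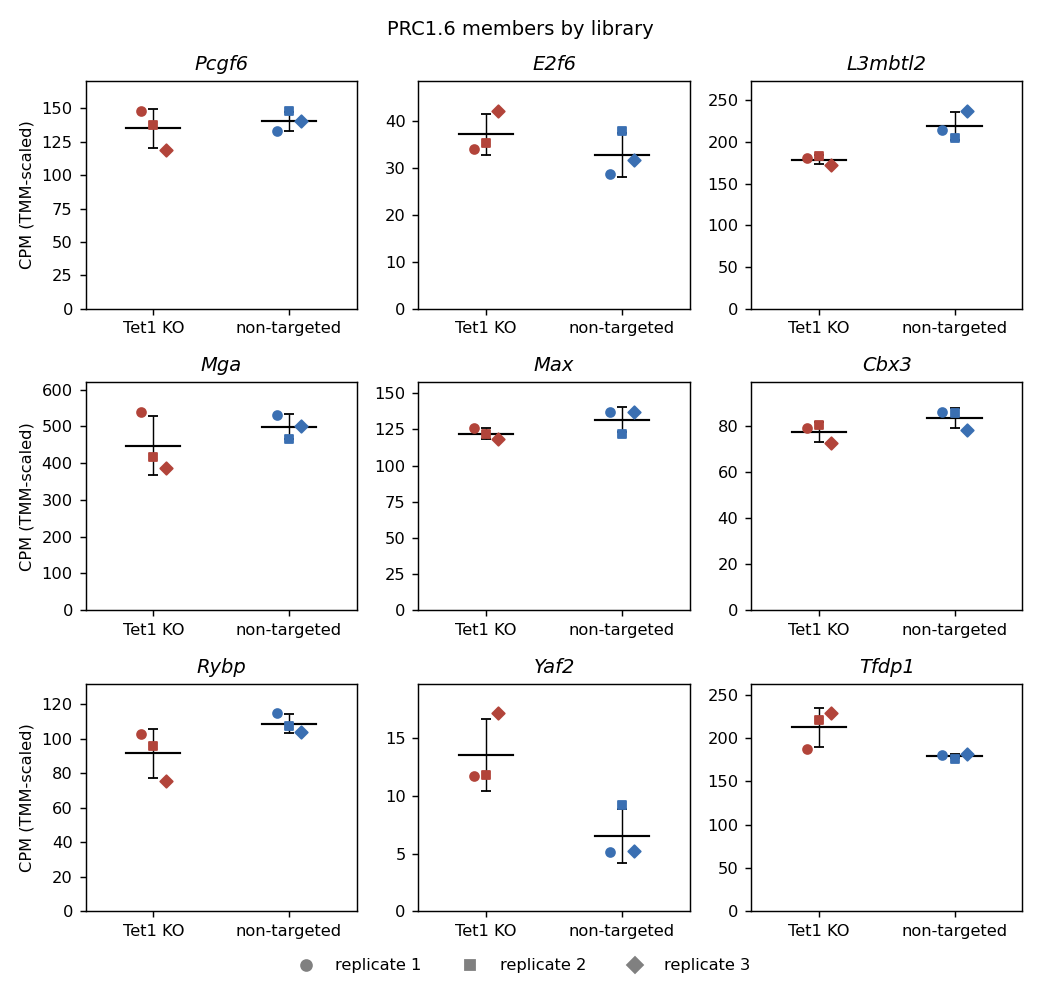
Level of each of the 9 members in CPM scaled with TMM factors, with Tet1 KO clones (red) left and non-targeted clones (blue) right in each panel; symbols mark the replicate, horizontal lines the mean and bars the SD (n = 3). Yaf2 and Tfdp1 lie higher and L3mbtl2 and Rybp lie lower in all 3 Tet1 KO clones, and the groups overlap for the other 5.

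Per length of annotated exons, the most abundant member over the 6 libraries was Tfdp1, with a mean level of 53.4 CPM per kilobase, and the least abundant was Yaf2, with 5.37 CPM per kilobase. Between them stood Max at 35.3, L3mbtl2 at 33.4, Mga at 30.9, Pcgf6 at 27.4, Rybp at 21.1, Cbx3 at 13.4 and E2f6 at 6.18 CPM per kilobase. In this order the ranges over the libraries of neighbouring genes were separate for Tfdp1 and Max, for Rybp and Cbx3 and for Cbx3 and E2f6, and overlapped for all other neighbours. The scale is approximate, since reads were counted over whole gene bodies with introns.

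Pcgf6, the subunit that defines the complex (chromosome 19, 47033619 to 47050845), had 148, 138 and 119 CPM in Tet1 KO replicates 1 to 3, against 133, 148 and 140 CPM in non-targeted clones. The groups overlapped, with the lowest and the highest value both in the Tet1 KO group. Its log2 fold change was -0.06 ± 0.10 (SE; edgeR adjusted p = 0.734), and 0.02 without Tet1 KO replicate 3. The related PCGF genes, which define the other PRC1 complexes, were not called either (0 of 5 in edgeR, where 0 had an unadjusted p under 0.05, and 0 in DESeq2). Pcgf3 had 106 ± 2.71 CPM in the Tet1 KO clones and 94.9 ± 3.39 CPM in non-targeted clones, and Pcgf2 had 120 ± 8.89 CPM in the Tet1 KO clones and 133 ± 10.7 CPM in non-targeted clones (SD, n = 3 each). The count of Pcgf6 was 0.554, 0.510 and 0.485 of the summed count of the 5 other PCGF genes in Tet1 KO replicates 1 to 3, against 0.505, 0.568 and 0.521 in non-targeted replicates. This ratio overlapped between the groups and differed by -0.04 on the log2 scale (exact two-sided permutation test, p = 0.6).

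L3mbtl2, an MBT-domain subunit that binds chromatin (chromosome 15, 81663889 to 81688315), had 181, 183 and 173 CPM in Tet1 KO replicates 1 to 3, against 214, 205 and 237 CPM in non-targeted clones. All 3 Tet1 KO clones were lower, and they lay closer to each other than the non-targeted clones did. The log2 fold change was -0.29 ± 0.08 (SE; edgeR adjusted p = 0.121; DESeq2 adjusted p = 0.0575), so neither test called it. Part of the gene lies opposite Chadl, on the other strand, and the deposited counts were made with a strand setting. Its paralogues with MBT domains behaved differently from each other. Scml2, a Polycomb-related protein of the germline, had 3.87 ± 1.44 CPM in the Tet1 KO clones and 21.6 ± 11.1 CPM in non-targeted clones (SD, n = 3 each), without overlap, and fell in DESeq2 (log2 fold change -2.48 ± 0.43 SE; DESeq2 adjusted p = 8.62e-07). Sfmbt2, a Polycomb protein that is imprinted in mouse extraembryonic tissue, had 192, 193 and 294 CPM in Tet1 KO replicates 1 to 3 and 138, 161 and 124 CPM in non-targeted replicates, and rose in DESeq2 (0.68 ± 0.18; DESeq2 adjusted p = 0.0196). Of the 8 tested MBT paralogues edgeR called 0, with 3 at an unadjusted p under 0.05 (24.8% of all genes). In DESeq2, 1 rose (5.50% of all genes) and 1 fell (3.15% of all genes). The DESeq2 call of Scml2 held without any single library, and that of Sfmbt2 was lost without Tet1 KO replicate 3 (DESeq2 adjusted p = 0.0981), non-targeted replicate 1 (0.164) or non-targeted replicate 3 (0.230).

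Mga, the large scaffold with a T-box domain and a basic helix-loop-helix domain (chromosome 2, 119897228 to 119969581), had 539, 417 and 388 CPM in Tet1 KO replicates 1 to 3, against 532, 465 and 502 CPM in non-targeted clones. Replicate 1 of the Tet1 KO clones was the highest of all 6 libraries, and replicates 2 and 3 were the lowest, so the groups overlapped. The log2 fold change was -0.16 ± 0.13 (SE; edgeR adjusted p = 0.465). The 20 tested genes nearest to Mga were likewise lowest in Tet1 KO replicates 2 and 3, with a median log2 level, with the non-targeted average again as 0, of 0.09, -0.20 and -0.27 in Tet1 KO replicates 1 to 3, against 0.08, -0.04 and -0.02 in non-targeted replicates. The part of this stretch in the level of Mga was not tested.

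Max, the partner through which MGA binds the E-box (chromosome 12, 76937269 to 76962248), had 126, 122 and 119 CPM in Tet1 KO replicates 1 to 3 and 137, 122 and 137 CPM in non-targeted replicates. Only non-targeted replicate 2 fell inside the Tet1 KO range, and the log2 fold change was -0.11 ± 0.08 (SE; edgeR adjusted p = 0.401). The ratio of Mga to Max counts was 4.29, 3.42 and 3.27 in Tet1 KO replicates 1 to 3 and 3.89, 3.82 and 3.66 in non-targeted replicates, again with Tet1 KO replicate 1 highest. It differed by -0.06 on the log2 scale (exact permutation test, p = 0.7). The other 11 tested genes of the MAX network encode MYC and MXD proteins and their relatives. Among them neither edgeR nor DESeq2 called a gene, with 3 at an unadjusted p under 0.05 in edgeR (24.8% of all genes). Mlxipl, a glucose-responsive factor, had 4.62 ± 0.336 CPM in the Tet1 KO clones and 2.65 ± 0.855 CPM in non-targeted clones. Mxd3, a MAX-binding repressor, had 5.83 ± 1.75 CPM in the Tet1 KO clones and 8.84 ± 0.451 CPM in non-targeted clones (SD, n = 3 each).

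E2f6, the repressive E2F that lacks a transactivation domain (chromosome 12, 16810965 to 16826743), had 34.0, 35.3 and 42.2 CPM in Tet1 KO replicates 1 to 3, against 28.8, 37.9 and 31.6 CPM in non-targeted clones. The groups overlapped through non-targeted replicate 2, and the log2 fold change was 0.18 ± 0.14 (SE; edgeR adjusted p = 0.442). Set against the summed counts of the activating family members E2f1, E2f2 and E2f3, E2f6 stood at 0.164, 0.209 and 0.259 in Tet1 KO replicates 1 to 3 and at 0.136, 0.191 and 0.155 in non-targeted replicates. Tet1 KO replicates 2 and 3 were above all non-targeted clones, replicate 1 was not, and the difference was 0.38 on the log2 scale (exact permutation test, p = 0.2). With the non-targeted average as 0, the log2 level of E2f1 was 0.07, -0.78 and -0.94 in Tet1 KO replicates 1 to 3. That of E2f2 was 0.30, 0.10 and -0.27, and that of E2f3 was -0.06, 0.02 and 0.06. The ratio therefore also carries the low E2f1 of replicates 2 and 3. Of 8 tested relatives edgeR called 0, with 2 at an unadjusted p under 0.05 (24.8% of all genes), and DESeq2 called 1, which fell (3.15% of all genes fell in DESeq2). This was E2f8, an atypical repressor of the cell cycle, which fell in DESeq2 with 116, 119 and 108 CPM in Tet1 KO replicates 1 to 3 and 157, 151 and 170 CPM in non-targeted replicates (log2 fold change -0.48 ± 0.08 SE; DESeq2 adjusted p = 0.000968). Its DESeq2 adjusted p was 0.0624 without non-targeted replicate 3.

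Tfdp1, the DP partner of E2F proteins (chromosome 8, 13338751 to 13378448), had 187, 221 and 229 CPM in Tet1 KO replicates 1 to 3, against 181, 176 and 181 CPM in non-targeted clones. All 3 Tet1 KO clones were higher, replicate 1 by a small margin, and the non-targeted clones were nearly equal. The log2 fold change was 0.24 ± 0.09 (SE), which neither edgeR (adjusted p = 0.162) nor DESeq2 (adjusted p = 0.198) called. A processed copy, Gm7390, matches 43.2% of the longest Tfdp1 transcript at 95% identity or more, and reads that map to both were not counted, so its level is uncertain. Tfdp2, the other DP partner, went the other way, with 84.0, 79.1 and 69.2 CPM in Tet1 KO replicates 1 to 3 and 97.8, 94.6 and 87.8 CPM in non-targeted replicates (log2 fold change -0.27 ± 0.10 SE; edgeR adjusted p = 0.158; DESeq2 adjusted p = 0.141). The ratio of Tfdp1 to Tfdp2 counts was 2.23, 2.80 and 3.30 in Tet1 KO replicates 1 to 3 and 1.85, 1.86 and 2.07 in non-targeted replicates, without overlap. The difference was 0.51 on the log2 scale (exact permutation test, p = 0.1, the smallest that 3 against 3 libraries can give; 0.250 adjusted over the 5 ratios tested).

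The promoter of Tfdp1 is shown because it is the only member promoter found to hold both the E-box and the E2F motif, the sequences that the complex's own DNA-binding subunits are known to bind. It runs from 250 bases before the start to 50 after it (RefSeq, GRCm38.p6, chr8:13338501-13338800, plus strand), written 5′ to 3′ with the E-box CACGTG and the E2F motif TCCCGC or its reverse GCGGGA in capitals.
Tfdp1: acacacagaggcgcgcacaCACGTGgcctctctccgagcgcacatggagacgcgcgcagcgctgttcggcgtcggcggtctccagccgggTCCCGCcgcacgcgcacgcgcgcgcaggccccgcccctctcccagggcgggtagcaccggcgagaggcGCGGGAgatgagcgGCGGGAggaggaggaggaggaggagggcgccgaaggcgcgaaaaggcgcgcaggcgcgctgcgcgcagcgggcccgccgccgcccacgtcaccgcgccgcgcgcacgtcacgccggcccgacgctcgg
The E-box begins at -231 and the E2F motifs at -160, -92 and -78 relative to the start. Of the 7 members with a promoter in the RefSeq table (all but Rybp and Yaf2), 2 held an E-box (Tfdp1 and Max) and 2 an E2F motif (Tfdp1 and E2f6) on either strand. Of all 32851 promoters of the table, 2349 (7.15%) held the E-box and 6562 the E2F motif. Both motifs contain the dinucleotide CG, and this set was not matched to the members for CG content. A match describes the letters in the window and is not a site.

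Rybp and Yaf2 encode related subunits that occupy the same place in PRC1 complexes and stimulate ubiquitylation of H2A. Yaf2 (chromosome 15, 93284278 to 93336935) had 11.7, 11.8 and 17.2 CPM in Tet1 KO replicates 1 to 3, against 5.16, 9.23 and 5.21 CPM in non-targeted clones, from 153, 143 and 239 reads against 64, 148 and 75 reads. All 3 Tet1 KO clones were higher, replicate 3 the most, while non-targeted replicate 2 lay nearest to them. The log2 fold change was 1.05 ± 0.29 (SE), with an adjusted p of 0.122 in edgeR and of 0.0170 in DESeq2, so that Yaf2 rose by the DESeq2 test alone. That call was lost without Tet1 KO replicate 2 (DESeq2 adjusted p = 0.0715), Tet1 KO replicate 3 (0.179), non-targeted replicate 1 (0.178) or non-targeted replicate 3 (0.208), with log2 fold changes of 0.84 to 1.38 when any single library was left out. The fibroblast markers were likewise highest in Tet1 KO replicate 3 and lowest in non-targeted replicate 1, and their part in the level of Yaf2 was not tested. The 20 tested genes nearest to Yaf2 had median log2 levels of 0.07, -0.13 and -0.12 in Tet1 KO replicates 1 to 3 and -0.0053, 0.15 and -0.09 in non-targeted replicates, so the stretch around it was not higher in the Tet1 KO clones.

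Rybp (chromosome 6, 100228565 to 100287485) had 103, 96.0 and 75.7 CPM in Tet1 KO replicates 1 to 3, against 115, 107 and 104 CPM in non-targeted clones. Each Tet1 KO clone was lower, replicate 1 by little and replicate 3 by the most. The log2 fold change of -0.25 ± 0.12 (SE) was not called (edgeR adjusted p = 0.246; DESeq2 adjusted p = 0.274), and was -0.13 without Tet1 KO replicate 3. A processed copy, Rybp-ps, matches 15.1% of its longest transcript. The 20 tested genes nearest to Rybp had median log2 levels of 0.09, -0.20 and 0.01 in Tet1 KO replicates 1 to 3. In non-targeted replicates these were 0.02, 0.02 and -0.07. On the same scale Rybp itself was at -0.08, -0.18 and -0.52 in the Tet1 KO replicates. The part of this stretch in the level of Rybp was not tested. The ratio of Rybp to Yaf2 counts was 8.76, 8.11 and 4.41 in Tet1 KO replicates 1 to 3, against 22.2, 11.6 and 19.9 in non-targeted replicates. Every Tet1 KO clone had a lower ratio than every non-targeted clone. The difference was -1.35 on the log2 scale (exact permutation test, p = 0.1, the smallest possible; 0.250 adjusted over the 5 ratios), and it lay between -1.63 and -1.03 when any single library was left out.

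**Figure D2:**
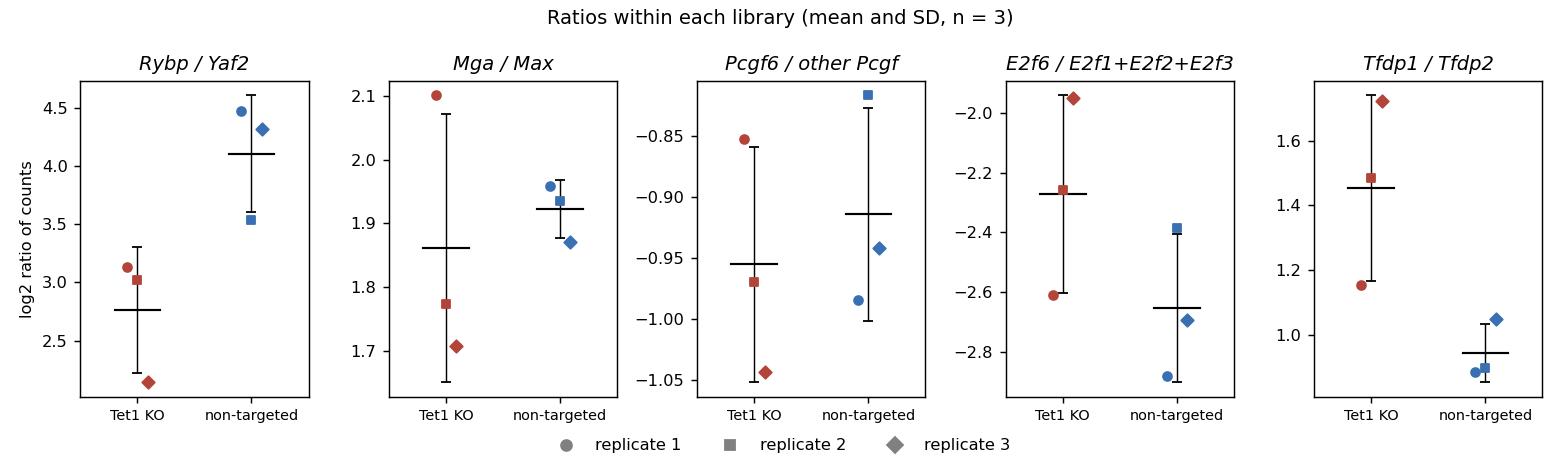
Log2 ratio of counts within each library for the 5 ratios tested, with Tet1 KO clones (red) left and non-targeted clones (blue) right; lines mark the mean and bars the SD (n = 3), and each panel has its own axis. The groups are apart for Rybp over Yaf2 (lower in Tet1 KO) and for Tfdp1 over Tfdp2 (higher in Tet1 KO) and overlap for the other 3.

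Cbx3, which encodes the heterochromatin protein HP1 gamma (chromosome 6, 51470360 to 51483704), had 79.4, 80.3 and 72.7 CPM in Tet1 KO replicates 1 to 3 and 86.2, 85.9 and 78.5 CPM in non-targeted replicates. The groups overlapped through non-targeted replicate 3 (log2 fold change -0.11 ± 0.08 SE; edgeR adjusted p = 0.439), and 11 other genes, most of them pseudogenes of Cbx3, match stretches of its transcript. Cbx1 and Cbx5, the other HP1 genes, had log2 fold changes of 0.04 ± 0.08 and -0.03 ± 0.08, and edgeR and DESeq2 called neither, with 0 at an unadjusted p under 0.05 in edgeR.

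The remaining subunits and the enzymes that bind the complex had log2 fold changes between -0.28 and 0.19. Of 8 genes edgeR called 0, with 2 at an unadjusted p under 0.05 (24.8% of all genes), and DESeq2 called 0. Of these 8, 7 had a log2 fold change below 0 (median -0.12). Hdac1, a histone deacetylase, had 163, 153 and 145 CPM in Tet1 KO replicates 1 to 3 and 192, 178 and 189 CPM in non-targeted replicates, each Tet1 KO clone below each non-targeted clone (-0.28 ± 0.08; DESeq2 adjusted p = 0.0608). Its transcript shares 71.1% of its length with 2 near-identical copies, so its level is uncertain. Hdac2 had -0.16 ± 0.12, and the adaptor Wdr5 had -0.20 ± 0.13. The H3K9 methyltransferases Ehmt1 and Ehmt2 had log2 fold changes of -0.04 ± 0.08 and -0.09 ± 0.09. The E3 ligase Rnf2 had 148 ± 36.9 CPM in the Tet1 KO clones and 152 ± 16.4 CPM in non-targeted clones (SD, n = 3 each; -0.05 ± 0.17, positive when Tet1 KO replicate 2, Tet1 KO replicate 3 or non-targeted replicate 1 was left out). Its paralogue Ring1 was the only gene of the list above 0, with 10.7 ± 0.952 CPM in the Tet1 KO clones and 9.39 ± 0.751 CPM in non-targeted clones (0.19 ± 0.16).

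**Figure D3:**
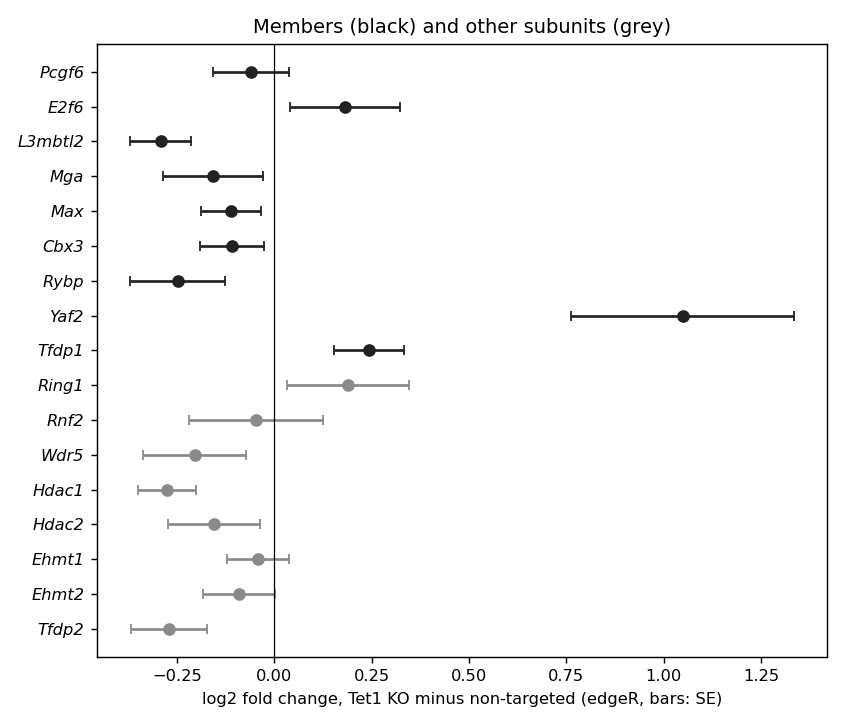
Log2 fold change (Tet1 KO minus non-targeted, edgeR) of the 9 members in black and of 8 further subunits and bound enzymes in grey; bars are the SE. Yaf2 stands at 1.05, and the other 16 genes lie between -0.29 and 0.24.

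The clones of the knockout differed among themselves. Relative to the non-targeted mean, the median log2 level of the 9 members was 0.06, -0.05 and -0.20 in Tet1 KO replicates 1 to 3, against 0.01, -0.02 and 0.00 in non-targeted replicates. Replicate 1 was thus the highest of all 6 and replicate 3 the lowest, in the order opposite to that of the fibroblast markers given above. Without Tet1 KO replicate 1, edgeR called 5 of the 9 members, against 29.1% of all genes. Yaf2 (log2 fold change 1.14, edgeR adjusted p = 0.0207) and Tfdp1 (0.32, 0.0106) rose in that comparison (15.1% of all genes rose). L3mbtl2 (-0.31, 0.0285), Mga (-0.32, 0.0195) and Rybp (-0.35, 0.0480) fell (14.0% of all genes fell). Leaving out any other single library left 0 members called in edgeR. Of the other subunits 4 fell without that clone, Hdac1, Hdac2, Wdr5 and Tfdp2.

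Genes whose levels followed those of a member most closely over the 6 libraries were found by the root mean square difference of centred log2 CPM among 8731 genes with a mean of at least 10 CPM. For Pcgf6 these were Dpf2 and Clp1, at 0.031 and 0.033, against a spread of Pcgf6 itself of 0.107 on the same scale. For E2f6 they were Bach1 and Cdh1 (0.033 and 0.038, with a spread of 0.176), for L3mbtl2 they were Wiz and Slc25a28 (0.018 and 0.019, spread 0.159), and for Mga they were Angel2 and Mfn1 (0.022 and 0.025, spread 0.177). With 6 libraries such closeness is a description only.

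Genes listed from background knowledge as repressed by the complex in mouse embryonic stem cells moved in both directions, most of them with a log2 fold change below 0. Of 30 germline and meiosis genes listed, 26 passed the filter on low counts (not Tuba3b, Tex101, Spo11 and Meiob). The edgeR test called 0 of the 26, with 10 at an unadjusted p under 0.05 (24.8% of all genes). In DESeq2, 3 rose (Tdrkh, Tdrd1 and Meioc; 5.50% of all genes) and 4 fell (Tuba3a, Hormad1, Syce1 and Slc25a31; 3.15% of all genes). Of the 26, 22 had a log2 fold change below 0 (median -0.29, against 0.00 over all genes), 8 lay lower in every Tet1 KO clone (14.7% of all genes) and 3 higher (14.8% of all genes).

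Hormad1, a protein of the meiotic chromosome axis (chromosome 3, 95559677 to 95587671), had 9.58, 12.6 and 4.96 CPM in Tet1 KO replicates 1 to 3, against 21.6, 16.8 and 18.4 CPM in non-targeted clones. All 3 Tet1 KO clones were lower, and it fell in DESeq2 (log2 fold change -1.07 ± 0.31 SE, adjusted p = 0.0171 in DESeq2 and 0.127 in edgeR). Syce1, of the central element of the synaptonemal complex (chromosome 7, 140777229 to 140787852), had 10.9, 7.53 and 3.38 CPM in Tet1 KO replicates 1 to 3 and 17.5, 15 and 17.6 CPM in non-targeted replicates, and fell in DESeq2 (-1.20 ± 0.37; DESeq2 adjusted p = 0.0201). Both genes had Tet1 KO replicate 3 lowest. Slc25a31, an ADP/ATP carrier of the testis (chromosome 3, 40708855 to 40726096), stood at 2.38, 0.993 and 0.647 CPM in Tet1 KO replicates 1 to 3 and 5.57, 3.62 and 2.78 CPM in non-targeted replicates, and fell in DESeq2 (-1.57 ± 0.50; DESeq2 adjusted p = 0.0443). Its level was low in every library, and its highest Tet1 KO clone was close to its lowest non-targeted clone.

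Tuba3a, an alpha-tubulin of the testis (chromosome 6, 125278274 to 125286042), had 12.8, 8.52 and 2.88 CPM in Tet1 KO replicates 1 to 3, against 27.4, 20.2 and 30.4 CPM in non-targeted clones. It fell in DESeq2 (-1.69 ± 0.46, adjusted p = 0.00399 in DESeq2 and 0.122 in edgeR), with no overlap between the groups. The 20 tested genes nearest to it were lower too in Tet1 KO replicates 2 and 3, with median log2 levels of 0.04, -0.73 and -0.86 in Tet1 KO replicates 1 to 3 against -0.03, -0.0047 and 0.05 in non-targeted replicates. Tuba3a itself was at -0.996, -1.58 and -3.12 in the Tet1 KO replicates on the same scale, so in replicate 1 it was low in a stretch that was not. Among the genes near the other targets, median levels below -0.30 occurred only in the same 2 clones around Sycp2 and Stra8. Reads of the near-identical Tuba3b were not counted where they also mapped to Tuba3a.

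Tdrkh (chromosome 3, 94413273 to 94434668) and Tdrd1 (chromosome 19, 56826209 to 56870012) encode Tudor-domain proteins of the piRNA pathway, and Meioc (chromosome 11, 102663716 to 102682237) keeps germ cells in meiotic prophase. Tdrkh had 3.22, 7.53 and 5.97 CPM in Tet1 KO replicates 1 to 3, against 1.86, 2.18 and 1.6 CPM in non-targeted clones, and rose in DESeq2 (log2 fold change 1.56 ± 0.35 SE; DESeq2 adjusted p = 0.00614). Gm42463 covers 22.8% of Tdrkh on the same strand, and reads over both were not counted, so the level of Tdrkh is uncertain. Tdrd1 had 5.21, 5.79 and 7.84 CPM in Tet1 KO replicates 1 to 3 and 2.42, 4.06 and 3.34 CPM in non-targeted replicates, and rose in DESeq2 (0.93 ± 0.27; DESeq2 adjusted p = 0.0492). For all 3 genes each Tet1 KO clone was above each non-targeted clone. Meioc had 8.13, 10.5 and 11.9 CPM in Tet1 KO replicates 1 to 3 and 7.18, 5.49 and 5.14 CPM in non-targeted replicates, and rose in DESeq2 (0.78 ± 0.22; DESeq2 adjusted p = 0.0406). Leaving out single libraries ended the DESeq2 call of each of these 7 genes in at least 2 cases, those of non-targeted replicates 1 and 3 in every one. With 1 library left out, the number of targets called in DESeq2 ranged from 0 to 12. The number called over all genes moved as well in these settings, between 128 and 4106, so these counts are not read as a result about the targets.

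**Figure D4:**
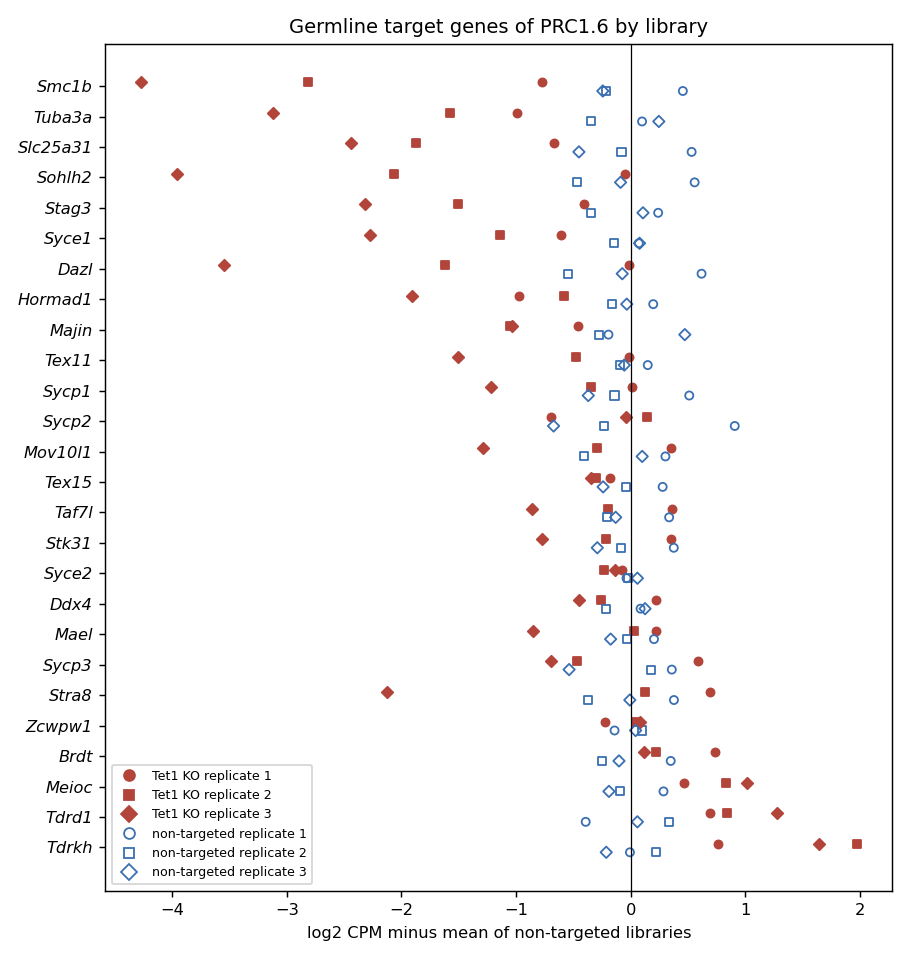
Log2 CPM of each of the 26 tested germline target genes in every library, minus the mean of the non-targeted libraries; filled red symbols are Tet1 KO clones, drawn above open blue symbols for non-targeted clones. Genes such as Tuba3a and Hormad1 lie left of all non-targeted clones in the 3 Tet1 KO clones, Tdrkh, Tdrd1 and Meioc lie right of them, and for Dazl and Sohlh2 the Tet1 KO replicate 1 lies within the non-targeted range.

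The promoters of 4 of these 7 genes are shown because they hold the motifs of the complex's own DNA-binding subunits; they were chosen after the values were seen. Meioc also holds an E2F motif (beginning at -228) and is not printed, since its promoter in the table lies 1869 bases from the deposited start of the gene. Each runs 5′ to 3′ from 250 bases before the start to 50 after it (RefSeq, GRCm38.p6), with E-boxes (CACGTG) and E2F motifs (TCCCGC or GCGGGA) in capitals. Hormad1 is at chr3:95559427-95559726 on the plus strand, Slc25a31 at chr3:40708621-40708920 on the plus strand, Tuba3a at chr6:125286032-125286331 on the minus strand and Tdrd1 at chr19:56825959-56826258 on the plus strand.
Hormad1: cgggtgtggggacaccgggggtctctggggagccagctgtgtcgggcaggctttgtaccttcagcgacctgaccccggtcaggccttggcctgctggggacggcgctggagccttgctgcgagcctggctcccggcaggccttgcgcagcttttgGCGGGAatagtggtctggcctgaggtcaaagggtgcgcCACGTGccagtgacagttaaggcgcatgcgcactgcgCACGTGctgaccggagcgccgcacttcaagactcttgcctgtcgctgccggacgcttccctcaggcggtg
Slc25a31: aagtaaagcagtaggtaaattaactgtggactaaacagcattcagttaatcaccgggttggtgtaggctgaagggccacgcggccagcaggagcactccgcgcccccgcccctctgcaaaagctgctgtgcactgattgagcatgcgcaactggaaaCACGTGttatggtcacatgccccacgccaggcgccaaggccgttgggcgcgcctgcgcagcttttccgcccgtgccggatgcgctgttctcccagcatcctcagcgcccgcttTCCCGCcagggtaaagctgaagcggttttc
Tuba3a: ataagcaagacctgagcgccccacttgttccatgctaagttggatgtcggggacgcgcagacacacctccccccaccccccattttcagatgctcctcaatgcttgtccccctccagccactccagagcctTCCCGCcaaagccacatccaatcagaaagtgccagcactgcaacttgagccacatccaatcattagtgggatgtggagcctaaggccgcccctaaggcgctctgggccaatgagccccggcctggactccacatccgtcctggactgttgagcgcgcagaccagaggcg
Tdrd1: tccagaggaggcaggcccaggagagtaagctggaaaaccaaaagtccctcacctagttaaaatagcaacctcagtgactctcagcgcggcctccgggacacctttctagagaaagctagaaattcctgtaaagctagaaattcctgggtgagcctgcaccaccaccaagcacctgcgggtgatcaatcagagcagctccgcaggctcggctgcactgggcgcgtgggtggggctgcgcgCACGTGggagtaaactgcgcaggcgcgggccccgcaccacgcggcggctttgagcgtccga
Hormad1 has E-boxes at -57 and -20 and an E2F motif at -95, and Slc25a31 has an E-box at -93 and an E2F motif at 21 after the start. Tuba3a has an E2F motif alone (-119), and Tdrd1, which rose, an E-box alone (-11). Of the 25 listed targets with a promoter in the table, 12 held an E-box (48.0%, against 7.15% of all promoters), 12 an E2F motif (48.0%, against 6562 of 32851 promoters) and 7 both (28.0%, against 1.99%). The E-box and the E2F motif contain the dinucleotide CG, and the set of all promoters was not matched to the targets for CG content. That set also holds several promoters for some genes, whereas each target gave a single promoter. The T-box motif AGGTGTGA or its reverse TCACACCT, to which the other DNA-binding domain of MGA is related, was in 2 of the 25, against 1.28% of all promoters. In these windows no match of one motif overlapped a match of another, and the targets were listed partly because the complex is known to bind them. Among the 7 called genes, Syce1 and Tdrkh held none of the 3 motifs, so falls and rises in DESeq2 both occurred among promoters with and without these letters.

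Other targets were lower in Tet1 KO replicates 2 and 3 above all. Smc1b, a meiotic cohesin, had 14.6, 3.47 and 1.22 CPM in Tet1 KO replicates 1 to 3, against 34.2, 21.5 and 21.1 CPM in non-targeted clones (-1.99 ± 0.73; DESeq2 adjusted p = 0.165). Stag3, another meiotic cohesin subunit, had 52.3, 24.3 and 13.8 CPM in Tet1 KO replicates 1 to 3 and 81.7, 54.4 and 74.6 CPM in non-targeted replicates (-1.22 ± 0.43; DESeq2 adjusted p = 0.157). Both lay lower in every Tet1 KO clone without passing a test. For the germ-cell RNA-binding protein Dazl, at 43.3, 14.2 and 3.67 CPM in Tet1 KO replicates 1 to 3 and 67.3, 30.01 and 41.6 CPM in non-targeted replicates, replicate 1 lay within the non-targeted range. Smc1b, Stag3 and Dazl are named after their values were seen.

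Over all 26 tested targets, the median log2 level with the non-targeted average as 0 was -0.01, -0.30 and -0.95 in Tet1 KO replicates 1 to 3, against 0.28, -0.16 and -0.08 in non-targeted replicates. Tet1 KO replicate 1 therefore lay inside the non-targeted range, and replicates 2 and 3 below it. The median log2 fold change was -0.64 without Tet1 KO replicate 1, -0.15 without Tet1 KO replicate 3 and -0.14 without non-targeted replicate 1. Pluripotent markers had medians of -0.09, -0.39 and -0.62 in Tet1 KO replicates 1 to 3 and 0.09, -0.11 and 0.05 in non-targeted replicates, the same order of the knockout clones as the targets and the opposite one to the fibroblast markers. The part of either in the levels of the targets was not tested. Without Tet1 KO replicate 1, edgeR called 12 of 27 tested targets, of which 9 fell and 3 rose, against 14.0% and 15.1% of all genes.

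**Figure D5:**
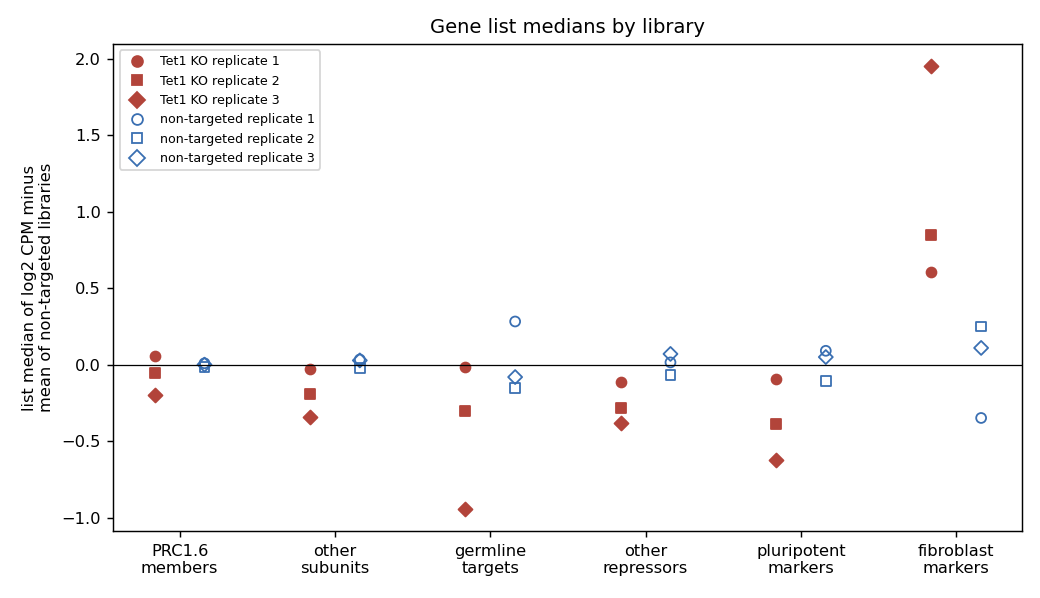
Median over each gene list of log2 CPM minus the mean of the non-targeted libraries, one symbol per library, with Tet1 KO clones (filled red) left of non-targeted clones (open blue). The 9 PRC1.6 members stay between -0.20 and 0.06 in every library, while the germline targets reach -0.95 and the fibroblast markers 1.95 in Tet1 KO replicate 3.

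Of 12 tested repressors of germline genes outside PRC1.6, 8 had a log2 fold change below 0 and 4 were lower in every Tet1 KO clone (14.7% of all genes). The edgeR test called 0, with 5 at an unadjusted p under 0.05 (24.8% of all genes), and 2 fell in DESeq2 (3.15% of all genes). Dnmt3l, the cofactor of the de novo DNA methyltransferases, had 397, 336 and 339 CPM in Tet1 KO replicates 1 to 3 and 513, 421 and 579 CPM in non-targeted replicates, and fell in DESeq2 (log2 fold change -0.50 ± 0.13 SE; DESeq2 adjusted p = 0.0235). Trim28, the corepressor recruited by KRAB zinc-finger proteins, averaged 2044 ± 229 CPM in the Tet1 KO clones and 2696 ± 271 CPM in non-targeted clones (SD, n = 3 each) and fell in DESeq2 (-0.40 ± 0.11; DESeq2 adjusted p = 0.0405). Both calls were lost in DESeq2 without Tet1 KO replicate 2 (adjusted p = 0.176 and 0.123), Tet1 KO replicate 3 (0.140 and 0.200), non-targeted replicate 1 (0.183 and 0.220) or non-targeted replicate 3 (0.256 and 0.313). Their log2 fold changes were larger in size than that of any PRC1.6 member other than Yaf2. The median of this list was -0.22, beside -0.11 for the 9 members.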

How the data were processed

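Polyadenylated RNA was sequenced from 6 clones (KAPA stranded mRNA-seq kit, the same sequencing batch). The authors deposited raw counts of reads per gene for 48440 genes. Per the file headers, they were made with featureCounts 1.6.2 (reverse stranded, whole gene bodies, GENCODE M15 on GRCm38.p5) without multi-mapping reads or reads over several genes. The submitters' processing notes name HISAT2 2.1.0, featureCounts 1.5.3, DESeq2 1.18.1 and mm10.

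From these counts, genes were kept with edgeR's filterByExpr (minimum count 10, minimum total 15; 14664 genes), scaled with TMM factors and compared with edgeR's quasi-likelihood test (4.0.16; R 4.3.3), group only, with Benjamini-Hochberg adjustment over all genes at 0.05. The SE is the fold change over the square root of F. CPM values use the TMM factors, and log2 levels a prior count of 1. DESeq2 1.42.0, limma voom 3.58.1, RLE factors, total counts only, no filter, the replicate number as a block and leaving out each library were alternatives; leaving out libraries in DESeq2 was added after seeing the data. Ratios of counts were compared with exact permutation tests. Levels per kilobase use exonic lengths of GENCODE M21. Near-identical copies were found with blastn 2.17.0 (at least 95% identity over 100 bases). Promoters are those of RefSeq nearest to the deposited gene starts. The model was run on simulated counts with planted changes. They were drawn independently for each library, so the run did not cover differences that many genes of a clone share.

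The members, gene lists and tests were chosen with earlier results of these data known. Named are Tet1, all members and other subunits, every target called by edgeR or DESeq2, up to 4 called genes of each other list (or the 2 with the smallest p), and the 2 genes most like each of 4 members; exceptions are marked.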

Additional observations from a re-analysis of the deposited data

How the results depend on the processing

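Directions of the members and called targets kept under RLE factors, total counts only, limma voom, no filter on low counts and DESeq2. The settings were run for Tet1, the members, the other subunits and the genes that the naming rule took from the lists. The genes most like a member and those named outside the rule were not run. Exceptions to direction among the genes and ratios run were close to 0: Cbx5 at 0.0071 under total counts only, and, with 1 library left out, in edgeR and DESeq2 together, Pcgf6 (-0.14 to 0.025), Rnf2 (-0.28 to 0.079), Cbx1 (-0.024 to 0.098), Cbx5 (-0.094 to 0.031), the log2 ratio of Mga to Max (-0.18 to 0.015) and that of Pcgf6 to the other PCGF genes (-0.093 to 0.0077). The number of genes called was 0 in edgeR, 1232 in DESeq2, 1 in limma voom, 159 with no filter and 3 with the replicate number as a block. It ranged from 0 to 4404 in edgeR and from 128 to 4106 in DESeq2 with 1 library left out. Members called were 1 in DESeq2, 0 to 5 in both tools with 1 library left out, and 0 otherwise; targets called were 7 in DESeq2 and 0 to 12 with 1 library left out. Tet1 passed in DESeq2 (-1.84), limma voom (-1.85), with no filter (-1.85) and with the block (-1.86), and ranged from -2.02 to -1.68 in edgeR and from -2.03 to -1.69 in DESeq2 with 1 library left out. Why the tools differ was not tested.

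The labels do not pair same-numbered clones, and correlations of their deviations were 0.44, 0.11 and -0.02. The best-matching non-targeted clone had the same number for Tet1 KO replicates 1 and 2, but not for replicate 3. With the block 0 members and 0 targets were called, and the Rybp to Yaf2 ratio had p = 0.250 (sign permutation within same-numbered clones). Yaf2 rests on 64 to 239 reads per library, and targets under 1 CPM on few.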
